A study of Mus musculus with 12 samples.

Results

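Described here are 5 kidney transcripts whose database match names a selenocysteine insertion sequence, ncRNA_aligned_2294, ncRNA_aligned_2317, ncRNA_aligned_3069, ncRNA_aligned_3530 and ncRNA_aligned_6494. They were taken by name from the 42452 putative noncoding transcripts in the deposited tables, and the word selenocysteine in the match text was the shared property. The match text holds no expression value, and 12 further transcripts carry the same word. The 5 were, however, chosen with earlier results of these data known. Their shares set against all transcripts are therefore a description.

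The study sequenced ribosomal RNA-depleted kidney RNA longer than 150 bases from C57BL/6J mice of 2 genotypes, Smad3-KO (KO) and WT, to look for genes tied to TGF-beta/Smad3 signalling in renal inflammation and fibrosis. Each genotype was sampled in 3 states with 2 libraries a group, so 12 libraries form 6 groups. The normal groups were untreated per the sample labels. The UUO groups had the left ureter tied (unilateral ureteral obstruction) and the obstructed kidney was taken on day 5. The anti-GBM groups were sampled on day 10 of a glomerulonephritis raised with a sheep antibody to the mouse glomerular basement membrane, given at 60 μg per g body weight to mice first immunized with sheep IgG together with Freund's complete adjuvant. The protocol text also speaks of sham-operated mice, while the labels of the sequenced normal kidneys say untreated, so ligation cannot be told apart from anaesthesia and surgery, or the antibody from the immunization. The UUO protocol used groups of 8 mice of both genders weighing 22 to 25 g. The sex and age of each animal, whether a library pools animals, how Smad3 was removed and in which cells are not given in the sources used here. Nothing in the labels beyond an animal code says that 2 libraries of a group came from separate mice, so the p-values measure only the spread between these libraries, which may be technical.

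Selenocysteine is an amino acid that carries selenium and is built into a small family of proteins, among them glutathione peroxidases, thioredoxin reductases and iodothyronine deiodinases. It is encoded by UGA, which is otherwise a stop codon. In animals the ribosome reads that codon as selenocysteine when the mRNA holds a hairpin, the selenocysteine insertion sequence (SECIS), in its 3′ untranslated region, where the hairpin is bound by proteins that recruit the selenocysteine transfer RNA. The kidney is known as a source of the glutathione peroxidase of blood plasma.

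A match to such an element is no measurement of a whole selenoprotein mRNA. The match texts list GenBank records, which were not looked up here, and they pair none of the 5 with a gene symbol. A search of all match texts for 38 selenoprotein symbols, 11 symbols of the insertion machinery, 24 markers of kidney cell types and Smad3 found 0 of each. This does not show that these genes are absent, since transcripts matched to a selenocysteine insertion sequence carried no selenoprotein symbol either. Neither the kidney label nor the knockout could be checked by this search. The longest of the 5, ncRNA_aligned_2317, has 6290 bases and is matched to database entry FR025686, built on the GenBank record AF096875. The shortest, ncRNA_aligned_2294, has 1031 bases and is matched to FR401896, built on BC086649 and X03920. ncRNA_aligned_3069 has 5429 bases and matches FR312770, which is also the match of ncRNA_aligned_3068, a transcript with 13 reads over all libraries. ncRNA_aligned_3530 has 1569 bases and shares FR180015 with ncRNA_aligned_3528 and ncRNA_aligned_3529, which hold 4 and 8 reads. ncRNA_aligned_6494 has 2553 bases and is matched to FR276562. Transcripts that share an entry may share reads, and no strand setting is recorded, so reads of an overlapping antisense transcript cannot be told apart. The tables give no genome position for any of them.

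The 5 differ widely in abundance. In WT normal kidney the mean RPKM (reads per kilobase of transcript and per library depth, which corrects for length) was 2636 for ncRNA_aligned_2294, 690.0 for ncRNA_aligned_6494 and 356.0 for ncRNA_aligned_3069, which placed them 10th, 69th and 131st of the 42452 transcripts. By the same measure ncRNA_aligned_3530 stood at 2.05 RPKM (9329th) and ncRNA_aligned_2317 at 0.333 RPKM (28357th). Together the 5 took 0.187% to 0.974% of the reads of a library. The first 3 were therefore among the most abundant transcripts of these tables, and 2 were read a few times per library in normal kidney.

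The libraries held 4595261 to 7342937 uniquely mapped reads. In 3 libraries (WT UUO 1, KO UUO 1, KO anti-GBM 1) reads were stacked on a smaller share of each transcript: for transcripts with 20 to 200 reads, the covered length was 0.285 to 0.447 of what randomly placed reads would cover, against 0.636 to 0.911 in the other 9 libraries. Each of these libraries is 1 of the 2 in its group, so results are given below also for the 9 libraries alone. In those fits WT UUO, KO UUO and KO anti-GBM kidney are 1 library each, and that library is assumed to vary like the other groups. Levels are TMM-scaled CPM, reads brought to a common library total that is adjusted for a few dominating transcripts, and means are given with the SD of 2 libraries. Because tissue was sequenced in bulk, fewer cells of a type and less RNA per cell cannot be told apart in any of the values.

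**Figure D1:**
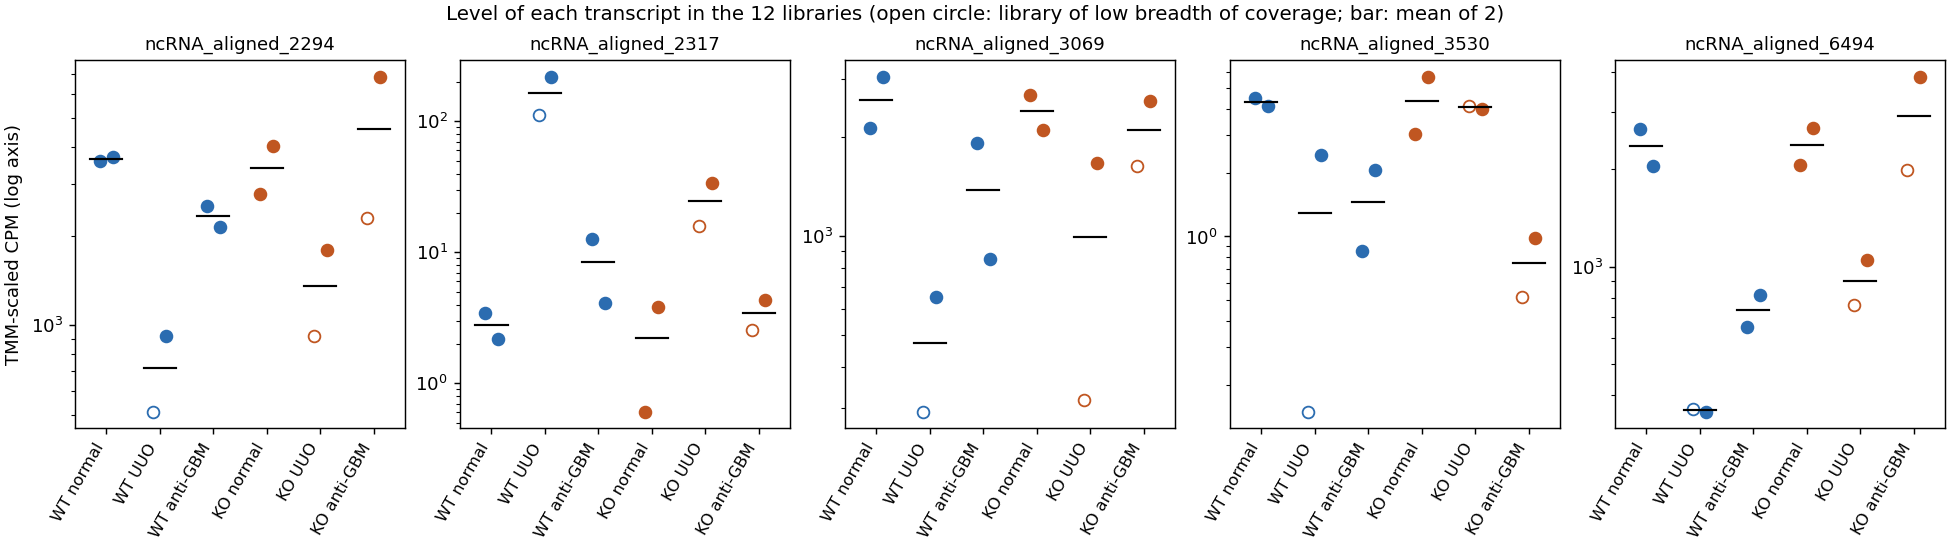
TMM-scaled CPM (log axis) of each of the 5 transcripts in the 12 libraries, WT in blue and Smad3-KO in orange. Points are libraries, open circles mark the 3 libraries with a low covered length, and bars are means of 2. ncRNA_aligned_2317 is highest in the WT UUO pair (112 and 219 CPM), where ncRNA_aligned_2294, ncRNA_aligned_3069 and ncRNA_aligned_6494 have their lowest group means.

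ncRNA_aligned_2317 was the 1 transcript of the 5 that rose. In normal kidney it was close to undetected, with 16 and 10 reads (3.42 and 2.17 CPM) in WT and 3 and 17 reads (0.609 and 3.86 CPM) in KO. In WT UUO kidney it held 755 and 2609 reads, or 112 and 219 CPM. In KO UUO kidney it held 150 and 201 reads, or 16.0 and 33.6 CPM. The obstructed kidneys of both genotypes thus lay above every other library, and the WT pair lay above the KO pair. The anti-GBM kidneys stayed low, with 12.7 and 4.14 CPM in WT and 2.58 and 4.33 CPM in KO. The group means fell in the order WT UUO, KO UUO, WT anti-GBM, KO anti-GBM, WT normal and KO normal, and the last 4 groups overlapped with their neighbours in that order.

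The UUO rise of ncRNA_aligned_2317 in WT kidney, from 2.79 ± 0.886 to 166 ± 75.4 CPM (SD, n = 2 each), was a log2 difference of 5.88 ± 0.83 (SE), or 58.9-fold, with an edgeR adjusted p of 0.000363. It was called under each of the 19 other settings tried, with log2 differences from 5.32 to 6.96. In KO kidney the difference was 3.47 ± 0.76, from 2.23 ± 2.30 to 24.8 ± 12.5 CPM, with an edgeR adjusted p of 0.165. It passed in DESeq2 (adjusted p = 0.00137, which called 1.00% of all) and in edgeR on the 9 libraries (adjusted p = 0.0352, 0.850% of all), where the KO UUO group is 1 library with no spread of its own. Leaving out single libraries gave 2.68 to 5.30, with adjusted p-values up to 1. Against WT anti-GBM kidney, WT UUO kidney was 4.30 ± 0.75 higher on the log2 scale (19.7-fold, edgeR adjusted p = 0.0206). That call held in 15 of the 19 other settings. It was lost without WT UUO 2 (0.0784), WT anti-GBM 1 (0.0756) or WT anti-GBM 2 (0.388), and in the fit on only the groups compared.

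Reads of ncRNA_aligned_2317 covered most of its length where it was abundant. In WT UUO 2 they covered 99.9% of the 6290 bases and in WT UUO 1 76.2%, where random placement would leave nothing uncovered. In KO UUO 2 the 201 reads covered 74.8%, where random placement would cover 94.4%. In KO UUO 1 the 150 reads covered 25.5%, against 88.3% by random placement, so that the KO value of this library rests on a small part of the transcript. In the 4 normal libraries 3 to 17 reads covered 3.78% to 17.1%.

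ncRNA_aligned_2294, the most abundant of the 5, moved the other way. Its levels were 3587 and 3690 CPM in WT normal and 2774 and 4015 CPM in KO normal kidney. In UUO kidney they were 512 and 924 CPM in WT and 920 and 1797 CPM in KO. In anti-GBM kidney they were 2523 and 2146 CPM in WT, and 2295 and 6866 CPM in KO. All 4 UUO libraries lay below all 8 others, and the KO anti-GBM pair spanned most of the range of those 8. In WT kidney UUO lowered the level from 3639 ± 72.8 to 718 ± 291 CPM (log2 difference -2.34 ± 0.47, 5.07-fold lower, edgeR adjusted p = 0.00694).

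That call held in 15 of the 19 other settings. It was lost without WT normal 1 (adjusted p = 0.0555), without WT normal 2 (0.0573), without WT UUO 1 (0.149) and with library size as the only scaling, which gave -1.26 in place of -2.34 (0.0727). On the 9 libraries of higher covered length, with 1 WT UUO library, the difference was -1.98 and the edgeR adjusted p 0.000144. In KO kidney the UUO difference was -1.32 ± 0.46 (edgeR adjusted p = 0.649).

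ncRNA_aligned_6494 was low in both WT disease models. Its levels were 2665 and 2042 CPM in WT normal and 2068 and 2692 CPM in KO normal kidney. They were 363 and 356 CPM in WT UUO and 764 and 1047 CPM in KO UUO kidney. In anti-GBM kidney they were 653 and 817 CPM in WT and 1994 and 3862 CPM in KO. The WT libraries of both disease models lay below all 4 normal libraries, whereas the KO libraries did so in UUO and overlapped with normal in anti-GBM. WT UUO kidney fell from 2353 ± 440 to 360 ± 4.77 CPM (log2 difference -2.71 ± 0.40, 6.54-fold lower, edgeR adjusted p = 0.000746), called under all 19 other settings at -2.89 to -1.65.

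In anti-GBM kidney ncRNA_aligned_6494 stood nearest to a genotype difference. The KO mean of 2928 ± 1321 CPM was 3.98-fold the WT mean of 735 ± 116 CPM, a log2 difference of 1.99 ± 0.39 with an edgeR adjusted p of 0.0519, just outside the threshold of 0.05. It was called in 9 of 19 other settings, among them DESeq2 (adjusted p = 0.00382, with 3.17% of all called) and the 9 libraries (2.38, adjusted p = 8.28e-06, with 7.00% of all called). In the latter the KO anti-GBM group is 1 library, the higher of its pair, and lends no spread to that p. With library size alone it stood at 1.21 (adjusted p = 0.0826). Leaving out single libraries moved the difference between 1.44 and 2.39 and the adjusted p between 0.0127 and 0.468. Against WT normal kidney, WT anti-GBM kidney was at -1.68 ± 0.39 (edgeR adjusted p = 0.146), and DESeq2 called that difference (-1.48, adjusted p = 0.0304).

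ncRNA_aligned_3069 also had its lowest group means in UUO kidney. Its levels were 2133 and 3054 CPM in WT normal and 2696 and 2100 CPM in KO normal kidney. They were 292 and 655 CPM in WT UUO, and 317 and 1667 CPM in KO UUO kidney. In anti-GBM kidney they were 1916 and 850 CPM in WT and 1632 and 2580 CPM in KO. The 4 UUO libraries lay below all normal libraries, and the KO UUO pair differed by 5.25-fold, its lower member being a library of low covered length. The WT UUO difference, -2.45 ± 0.71, did not pass in edgeR (adjusted p = 0.115). It passed in 6 of 19 other settings, among them DESeq2 (-2.17, adjusted p = 0.0154, which called 8.06% of all). The 9 libraries, with 1 WT UUO library, were another of the 6, at -1.98. The fits without KO UUO 1 or KO UUO 2 passed too. Those libraries lie outside the contrast and enter it through the pooled spread and the scaling.

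ncRNA_aligned_3530 was read too few times for a firm value. Its libraries held 1 to 39 reads. Normal kidney gave 4.49 and 4.12 CPM in WT and 3.05 and 5.68 CPM in KO, and UUO gave 0.149 and 2.43 CPM in WT and 4.15 and 4.02 CPM in KO. Anti-GBM kidney gave 0.854 and 2.07 CPM in WT and 0.515 and 0.985 CPM in KO. The value of 0.149 CPM is 1 read, in a library of low covered length. No comparison called it: the UUO difference was -1.67 ± 1.14 in WT (edgeR adjusted p = 0.500) and the anti-GBM difference in KO was -2.49 ± 1.24 (0.567). Its reads covered 5.74% to 42.2% of the transcript.

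Obstruction of the WT kidney was the comparison with the most calls among the 5. Of the 5, 3 were called, ncRNA_aligned_2317 higher and ncRNA_aligned_2294 and ncRNA_aligned_6494 lower, where 2.42% of all 24816 tested transcripts were called (0.681% higher and 1.74% lower). An unadjusted p under 0.05 was reached by 4 of the 5, against 15.8% of all, and DESeq2 called 4 of the 5, against 8.06% of all. The median log2 difference of the 5 was -2.34, against 0.49 over all tested transcripts. Both WT UUO libraries lay on the same side of both WT normal libraries for all 5, which held for 54.5% of all tested transcripts.

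**Figure D2:**
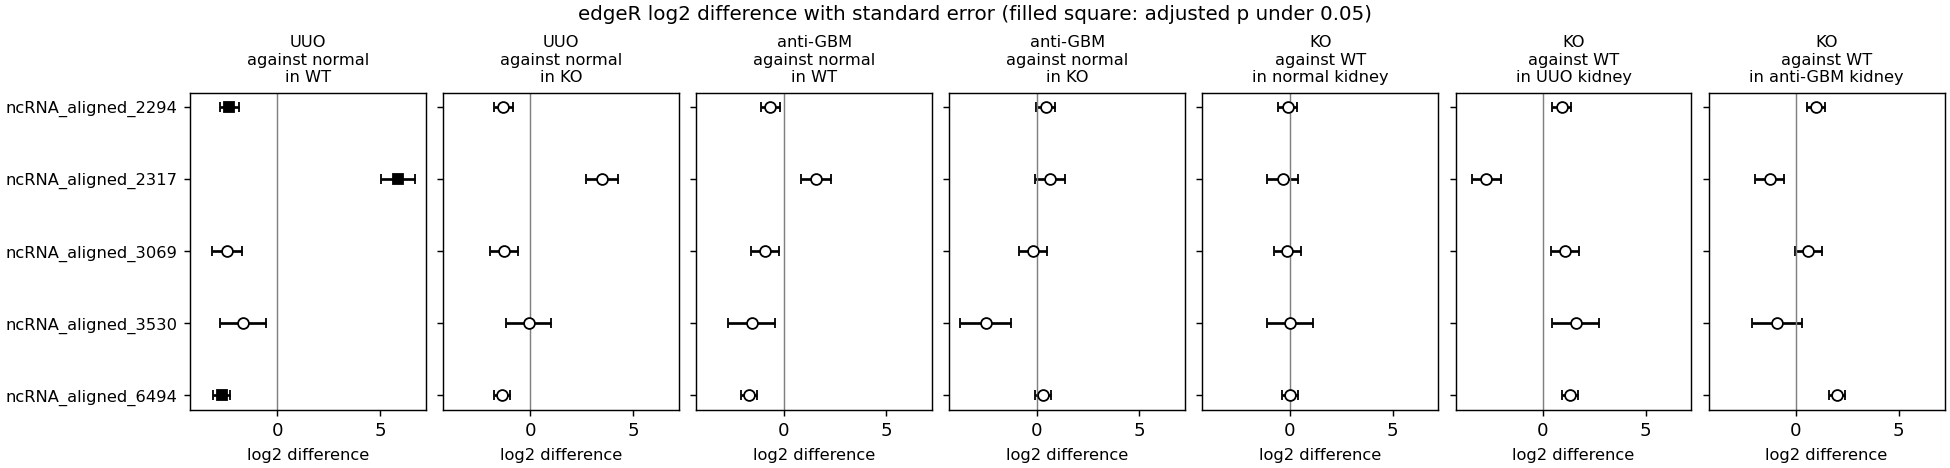
edgeR log2 differences of the 5 transcripts in 7 comparisons, with standard errors; filled squares mark an adjusted p under 0.05. The filled squares are ncRNA_aligned_2317 at 5.88, ncRNA_aligned_2294 at -2.34 and ncRNA_aligned_6494 at -2.71, all in UUO against normal in WT.

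In KO kidney 0 of the 5 were called in UUO by edgeR (0.0121% of all transcripts were), and 3 had an unadjusted p under 0.05 (5.98% of all). DESeq2 called 1, ncRNA_aligned_2317, and 1.00% of all. The UUO and normal pairs did not overlap for 4 of the 5, against 36.0% of all. The signs were those of WT kidney for each of the 5, at 3.47 for ncRNA_aligned_2317 and between -1.39 and -0.09 for the others. The median of the 5 was -1.27, with 0.00 over all transcripts. The difference between the genotypes in their UUO response was tested as an interaction, which called 0 of the 5 in edgeR (0.0604% of all) and in DESeq2 (1.21% of all). It stood at -2.41 ± 1.02 for ncRNA_aligned_2317 (adjusted p = 0.775) and 1.32 ± 0.54 for ncRNA_aligned_6494 (0.755), the 2 members with an unadjusted p under 0.05 (5.63% of all). For ncRNA_aligned_2317 leaving out single libraries moved it from -3.21 to -0.58, the latter without KO normal 2. A difference in response between KO and WT kidney was thus not detected by these tests for any of the 5.

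Anti-GBM disease gave no call among the 5 in edgeR on all libraries with the filter on low counts. Without that filter edgeR called ncRNA_aligned_6494 in WT kidney (-1.67, adjusted p = 0.0179, with 123 called over all transcripts). In WT kidney edgeR called 0 of 5 (0.0201% of all), with an unadjusted p under 0.05 for 2 (6.56% of all), ncRNA_aligned_2317 at 1.58 ± 0.72 and ncRNA_aligned_6494. DESeq2 called 1, ncRNA_aligned_6494, and 2.59% of all. The pairs did not overlap for all 5, against 54.7% of all. The median of the 5 was -0.91, against 0.30 over all transcripts. In KO kidney edgeR called 0 of 5 (0.0524% of all), DESeq2 called 0 (1.04% of all) and 0 had an unadjusted p under 0.05 (8.75% of all). The pairs were apart for 1 of the 5, ncRNA_aligned_3530, against 40.3% of all. The differences other than that of ncRNA_aligned_3530 lay between -0.19 (ncRNA_aligned_3069) and 0.65 (ncRNA_aligned_2317). Setting obstruction against anti-GBM disease, WT kidney had 1 of 5 called by edgeR (0.0967% of all) and by DESeq2 (1.79% of all), ncRNA_aligned_2317. The WT pairs were apart for 4 of 5 (40.6% of all), and 4 had an unadjusted p under 0.05 (5.77% of all). In KO kidney edgeR called 0 of 5 (0.0242% of all), with 3 at an unadjusted p under 0.05 (13.1% of all) and pairs apart for 4 (33.7% of all). DESeq2 called 2 there (2.70% of all), ncRNA_aligned_2317 at 2.87 (adjusted p = 0.0120) and ncRNA_aligned_6494 at -1.62 (0.0153).

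No difference between KO and WT normal kidney was detectable for any of the 5. The log2 differences between KO and WT normal kidney ran from -0.34 to 0.02, and the pairs overlapped for all 5, where 37.4% of all transcripts had pairs apart. edgeR called 0 of 5 (0.0161% of all), DESeq2 called 0 (0.281% of all), and 0 had an unadjusted p under 0.05 (2.22% of all). The standard errors of these differences were 0.38 to 1.11. In UUO kidney edgeR called 0 of 5 (0.00806% of all), and the 2 with an unadjusted p under 0.05 (6.08% of all) were ncRNA_aligned_2317 at -2.74 ± 0.70 (adjusted p = 0.270) and ncRNA_aligned_6494 at 1.33 ± 0.39 (0.408). DESeq2 called 1, ncRNA_aligned_2317 (-2.89, adjusted p = 0.00812), and 0.933% of all. KO and WT libraries did not overlap for these 2 and for ncRNA_aligned_3530, so for 3 of 5, against 30.8% of all.

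In anti-GBM kidney edgeR called 0 of 5 between the genotypes (0.0201% of all), and 2 had an unadjusted p under 0.05 (14.8% of all). DESeq2 called 1, ncRNA_aligned_6494, and 3.17% of all. That was also the 1 member whose pairs were apart, where 51.6% of all had pairs apart. The 2 were ncRNA_aligned_6494 and ncRNA_aligned_2294, the latter at 0.97 ± 0.45 with overlapping libraries (adjusted p = 0.328). The anti-GBM interaction called 0 of 5 in edgeR (0.0161% of all) and in DESeq2 (1.27% of all). An unadjusted p under 0.05 was reached by 1 (10.0% of all), and the interaction stood at 1.98 ± 0.54 for ncRNA_aligned_6494 (adjusted p = 0.296). On the 9 libraries it called 2 of 5 (4.31% of all), ncRNA_aligned_6494 at 2.36 (0.000654) and ncRNA_aligned_2294 at 1.65 (0.0150), where the KO anti-GBM group is 1 library assumed to vary like the others.

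Scaling shifted all transcripts together. The median log2 difference between WT UUO and WT normal kidney over all tested transcripts was 0.49 under TMM, 0.76 under DESeq2 size factors and 1.55 when the library size was the sole scaling. The calls over all transcripts split into 169 higher and 431 lower under TMM, 248 and 333 under DESeq2 size factors, and 886 and 137 under library size. Measured from the median of all transcripts under each scaling, the WT UUO difference was 5.39 to 5.41 for ncRNA_aligned_2317, -2.83 to -2.81 for ncRNA_aligned_2294, -2.94 to -2.91 for ncRNA_aligned_3069, -2.16 to -2.12 for ncRNA_aligned_3530 and -3.20 for ncRNA_aligned_6494. Between KO and WT anti-GBM kidney the median moved from -0.62 with TMM to -1.37 with library size, and ncRNA_aligned_6494 stood 2.58 to 2.61 above it. A change of scaling shifts all transcripts nearly alike, so the distance from that median is stable by construction.

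The ratio of length-corrected levels of ncRNA_aligned_6494 to ncRNA_aligned_2317 is free of library scaling. It was 1919 and 2321 in WT normal, 7.96 and 4.01 in WT UUO and 127 and 486 in WT anti-GBM kidney. In KO kidney it was 8366 and 1719 in normal, 118 and 76.7 in UUO and 1906 and 2196 in anti-GBM. The value of 8366 rests on 3 reads of ncRNA_aligned_2317. The ratio was lowest in the WT UUO pair and next in the KO UUO pair, and only WT anti-GBM 1 came near the latter.

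The 3 libraries of low covered length held the lower value of their pair in 13 of 15 pairings with the 5 transcripts, by up to 16.3-fold (ncRNA_aligned_3530 in WT UUO). Over all tested transcripts they were the lower of the pair in 54.0%, 58.3% and 56.6% respectively for KO anti-GBM 1, for KO UUO 1 and for WT UUO 1. The 3 abundant members were covered over 74.9% to 99.9% of their length in every library, with the lowest value of each in 1 of these 3 libraries. The part of RNA quality in the levels was not tested. Without the 3 libraries the WT UUO differences were 6.28, -1.98, -1.98 and -2.72 for ncRNA_aligned_2317, ncRNA_aligned_2294, ncRNA_aligned_3069 and ncRNA_aligned_6494, and all 4 were called by edgeR, as were 10.8% of all, with 1 WT UUO library in that fit.

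**Figure D3:**
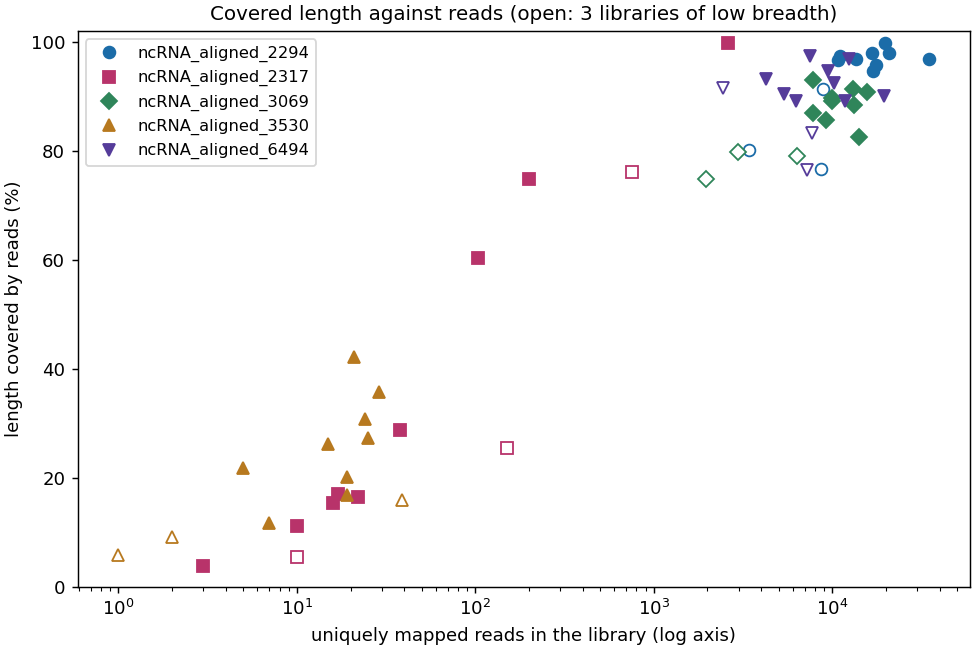
Share of the transcript's length covered by reads (%) against the reads it holds (log axis), for each of the 5 transcripts in each library; open symbols are the 3 libraries of low covered length. The ncRNA_aligned_2317 points climb from 3.78% in KO normal 1 to 99.9% in WT UUO 2, and the open KO UUO 1 point lies at 25.5%.

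Of the 12 other transcripts matched to a selenocysteine insertion sequence, 7 passed the filter on low counts, and since the filter keeps what is read often enough in some group these are not all of them. In WT UUO against WT normal kidney all 7 had a negative log2 difference, with a median of -2.78, while over all tested transcripts 9641 of 24816 were negative and the median was 0.49. Of the 7, 4 were called, all lower, where 1.74% of all were called lower. The 4 were ncRNA_aligned_802 at -4.78 ± 0.94 (edgeR adjusted p = 0.0174), ncRNA_aligned_922 at -2.90 ± 0.58 (0.00634), ncRNA_aligned_3688 at -2.87 ± 0.65 (0.0161) and ncRNA_aligned_5109 at -2.78 ± 0.59 (0.0190). ncRNA_aligned_922 and ncRNA_aligned_3688 are matched to 1 entry, FR392728, and may be parts of 1 RNA. No other comparison called any of the 7. Between KO and WT anti-GBM kidney all 7 were positive (8918 of all 24816), with a median of 1.41 against -0.62 over all. There 5 had an unadjusted p under 0.05 (14.8% of all) and 5 had pairs apart (51.6% of all). All 7 were negative in anti-GBM against normal in WT (10093 of all 24816) and in UUO against normal in KO (12256). Over the 12 tested transcripts of both kinds 7 were called in WT UUO kidney, 6 lower and 1 higher, and 11 had a negative difference. Over all tested transcripts the calls were 600 of 24816, 431 lower and 169 higher.

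**Figure D4:**
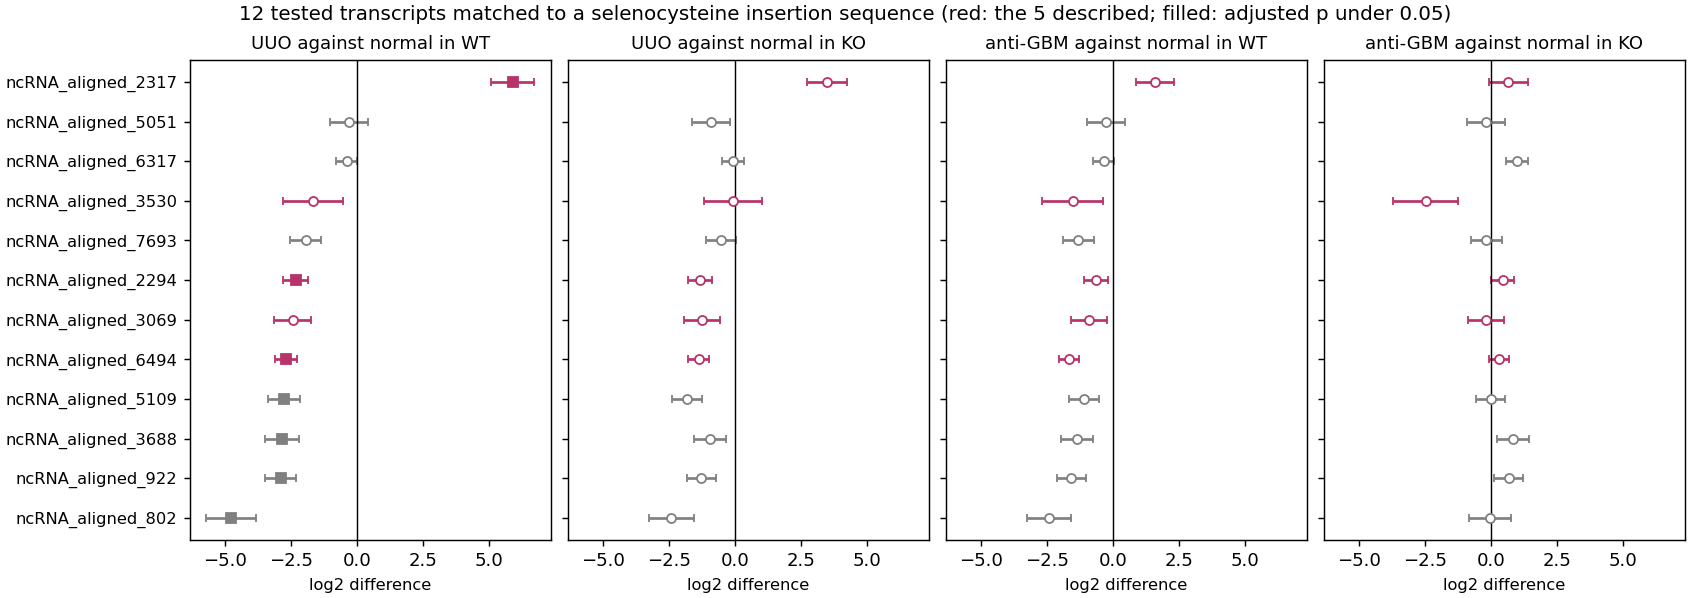
edgeR log2 differences with standard errors for the 12 tested transcripts matched to a selenocysteine insertion sequence, the 5 described in red and the other 7 in grey; filled squares mark an adjusted p under 0.05. In UUO against normal in WT, ncRNA_aligned_2317 lies at 5.88 and the other 11 lie below 0, down to ncRNA_aligned_802 at -4.78.

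The levels of ncRNA_aligned_802 show how far apart 2 libraries of 1 group could be. They were 157 and 118 CPM in WT normal and 5.36 and 4.62 CPM in WT UUO kidney, and 27.0 and 221 CPM in KO normal kidney. ncRNA_aligned_5109, as abundant as the 3 abundant members, held 2712 and 2361 CPM in WT normal and 207 and 530 CPM in WT UUO kidney. For both, the WT pairs of the 2 states did not overlap, and the KO normal pair of ncRNA_aligned_802 reached from far below its WT normal pair to above it.

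The transcripts whose pattern was most like that of a member were ranked by the Pearson correlation of log2 CPM over the 12 libraries, among 3609 or 3610 matched transcripts that averaged at least 10 CPM, and are given as a description. Nearest to ncRNA_aligned_6494 were ncRNA_aligned_3388 (r = 0.988), ncRNA_aligned_2583 (0.984) and ncRNA_aligned_6455 (0.983). For ncRNA_aligned_2294 they were ncRNA_aligned_7797 (r = 0.978), ncRNA_aligned_6572 (0.977) and ncRNA_aligned_5109 (0.976), the last being itself matched to a selenocysteine insertion sequence. For ncRNA_aligned_2317 they were ncRNA_aligned_3314 (r = 0.953), ncRNA_aligned_90 (0.951), whose match is to B2 RNA, a family of short repeat transcripts, and ncRNA_aligned_4856 (0.949).

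The same ranking gave ncRNA_aligned_6222 (r = 0.976), ncRNA_aligned_7707 (0.966) and ncRNA_aligned_1792 (0.965) for ncRNA_aligned_3069. For ncRNA_aligned_3530 it gave ncRNA_aligned_7335 (r = 0.917), ncRNA_aligned_1758 (0.871) and ncRNA_aligned_6877 (0.867), the lowest likeness of the 5. The points of each correlation share their libraries, depth and scaling.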

How the data were processed

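Uniquely mapped read counts per transcript were deposited by the authors, with RPKM, covered length in percent and mean coverage depth (signal), per the file headers. Per the submitters' processing notes, Bowtie 0.12.7 and the mm9 build were used; transcript assembly, counting and strand are not given in the sources used here. RPKM recomputed from the deposited counts, lengths and table totals deviated by at most 1.75e-14 (relative), so it counts only listed transcripts; depth, length and counts together imply reads of 90 bases. Transcripts without a read are left off a library's table and were taken as 0.

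The test was edgeR's (version 4.0.16, with limma 3.58.1, R 4.3.3): TMM scaling, filterByExpr by group (24816 of 42452 transcripts kept), 1 mean per group over 12 libraries, robust quasi-likelihood F tests of 11 contrasts, Benjamini-Hochberg adjustment over all tested transcripts, and calls at an adjusted p under 0.05. Every adjusted p is edgeR's unless DESeq2 (1.42.0) is named. A permutation of 2 against 2 libraries cannot go below p = 0.3333. Replicates' counts differed beyond sampling noise in every group (chi-square per degree of freedom 10.7 to 217), so no library repeats the other of its group. Libraries of different groups were not compared in this way. The scripts were tested on simulated counts.

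All 5 transcripts are named in every comparison, other matched transcripts where called, and the 3 most alike by correlation (log2 CPM, prior count 2). The 5 and the lists were chosen with earlier results of these data known. Alternatives were other scalings, no filter, 9 libraries, no dominating transcripts, only the groups compared, DESeq2, and leaving out each library; the 9-library and leave-one-out fits kept the same 24816 transcripts.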

Additional observations from a re-analysis of the deposited data

Results flagged for a closer look

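ncRNA_aligned_3688 and ncRNA_aligned_922 are matched to the same selenocysteine insertion entry. For both, the libraries of the genotypes lay apart without overlap and in opposite directions in different states. They were found by a search for such patterns. Over all tested transcripts the genotypes lay apart in either direction for 37.4% in normal, 30.8% in UUO and 51.6% in anti-GBM kidney. The share that did so in opposite directions was not counted. KO was lower than WT in normal kidney, with 17.9 and 19.7 against 28.2 and 23.9 CPM for ncRNA_aligned_3688 and 28.0 and 27.0 against 44.3 and 41.0 CPM for ncRNA_aligned_922. In UUO kidney KO was higher, with 10.7 and 8.70 against 3.13 and 3.95 CPM and with 13.3 and 9.04 against 4.77 and 6.55 CPM. In anti-GBM kidney KO was higher too, with 18.0 and 48.3 against 9.52 and 10.5 CPM and with 34.0 and 53.0 against 14.3 and 14.1 CPM. As an interaction in edgeR this amounted to log2 differences of 1.92 (adjusted p = 0.842) and 1.61 (0.882) in UUO and of 2.20 (0.440) and 2.25 (0.413) in anti-GBM kidney, none of them called. The first value of each UUO pair and of the KO anti-GBM pair comes from a library of low covered length. Both transcripts may be parts of 1 RNA, and so give 1 observation.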

How the results depend on the processing

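No paired analysis was possible because the labels give each library an animal code and no replicate number shared between groups. With 2 libraries a group the calls rest on a spread pooled over groups of unequal noise, and low counts limit ncRNA_aligned_3530 and, outside UUO kidney, ncRNA_aligned_2317. In UUO against normal in WT the number of the 5 called was 2 to 4 under the other settings and 2 to 4 when 1 library was left out. In parentheses stands the number called over all transcripts. That number is not given for the fits that leave out 1 library, so their counts of the 5 stand without a background. Without the filter on low counts edgeR called 1 of 5 in anti-GBM against normal in WT, UUO against normal in KO, KO against WT in UUO kidney and KO against WT in anti-GBM kidney, and 3 of 5 in UUO against anti-GBM in WT and in KO (91 to 218 over these comparisons). On the 9 libraries edgeR called 1 in anti-GBM against normal in WT (1616), where both groups keep their 2 libraries. UUO against normal in KO, KO against WT in anti-GBM kidney, UUO against anti-GBM in WT and the anti-GBM interaction gained calls there too. Each of these includes a group of 1 library, so their counts are not given. UUO against anti-GBM in KO gained calls as well, but sets 1 library against 1, with all of the spread taken from other groups. DESeq2 called 1 in anti-GBM against normal in WT (204), UUO against normal in KO (120), KO against WT in UUO kidney (112) and in anti-GBM kidney (484), and 2 in UUO against anti-GBM in KO (435). Library size alone gave 1 in UUO against normal in KO (63), KO against WT in UUO kidney (24) and UUO against anti-GBM in KO (177). DESeq2 size factors gave 1 in KO against WT in anti-GBM kidney (30). The fit on only the groups compared gave 1 in anti-GBM against normal in WT (2246) and 0 in UUO against anti-GBM in WT (2). Leaving out single libraries gave 0 to 1 called in anti-GBM against normal in WT, UUO against normal in KO, KO against WT in anti-GBM kidney and UUO against anti-GBM in WT and KO, and 0 in the comparisons not yet named. Over all transcripts the WT UUO calls were 600, and 1023 with library size alone, 1046 without the filter, 1366 in DESeq2 and 2685 on the 9 libraries.

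Signs turned only in comparisons that the edgeR fit on all 12 libraries did not call; 1 of them, ncRNA_aligned_2294 between KO and WT anti-GBM kidney, was called on the 9 libraries (1.55, adjusted p = 0.00144). With library size alone ncRNA_aligned_2294 stood at 0.10 in anti-GBM against normal in WT, ncRNA_aligned_3069 at -0.12 between KO and WT anti-GBM kidney and -0.070 in that interaction, and ncRNA_aligned_3530 at 0.58 in UUO against normal in KO and 0.20 in UUO against anti-GBM in WT. ncRNA_aligned_3530 in UUO against normal in KO also stood at 0.054 with DESeq2 size factors, 0.053 in DESeq2 and 0.091 on only the groups compared; on the 9 libraries it stood at 0.69 in UUO against anti-GBM in WT, and ncRNA_aligned_3069 at 0.12 in anti-GBM against normal in KO. When 1 library was left out, KO against WT in normal kidney ran from -0.39 to 0.14 for ncRNA_aligned_2294, -2.17 to 0.46 for ncRNA_aligned_2317, -0.35 to 0.17 for ncRNA_aligned_3069, -0.50 to 0.40 for ncRNA_aligned_3530 and -0.19 to 0.22 for ncRNA_aligned_6494. Anti-GBM against normal in KO ran from -0.56 to 1.02, -0.15 to 2.48, -0.56 to 0.11 and -0.26 to 0.70 for ncRNA_aligned_2294, ncRNA_aligned_2317, ncRNA_aligned_3069 and ncRNA_aligned_6494. Other ranges that crossed 0 were -0.025 to 1.56 for ncRNA_aligned_2294 between KO and WT anti-GBM kidney, -0.58 to 1.80 and -0.47 to 1.91 for ncRNA_aligned_3069 between KO and WT UUO kidney and in the UUO interaction, -1.73 to 0.90 for ncRNA_aligned_2317 in the anti-GBM interaction, and -0.47 to 0.42 and -3.17 to 0.69 for ncRNA_aligned_3530 in UUO against normal in KO and UUO against anti-GBM in WT. The cause of these changes was not tested.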
